A study of Arabidopsis thaliana with 4 samples.

Results

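The plastid-genome-encoded transcripts of Arabidopsis thaliana leaves were described here across 4 groups of RNA sequencing libraries. A transcript was taken as a member when its locus identifier starts with ATCG, the prefix of the plastid chromosome, and its reads summed to 30 or more over 12 libraries. Of 133 ATCG rows, 87 met this rule, against 32982 genes in all. The row just inside the threshold, ATCG00050, held 32 reads, and the row just outside it, ATCG00290, held 27. Of the 46 rows under the threshold, 16 had no read in any library. The 87 members held 69048 reads, and the rows under the threshold held 288.

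In 2 of the groups Dox, a name the labels do not spell out, had been applied to local leaves at 25 um/g, and the groups hold the systemic leaves (here Dox systemic) and the treated local leaves (Dox local). The matching control groups hold systemic leaves (control systemic) and local leaves given water (control local), and for both kinds of systemic leaf the treatment is entered as NA. Each group is a single GEO record that holds 3 columns of counts, treated here as 3 libraries. The plants were grown on agar medium with sucrose in long days, and the labels give neither strain, age nor time of harvest. Nothing says that the 3 columns are different plants, and the p-values below then rest on a spread between libraries that may be technical.

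Plastids keep a small genome of their own, a remnant of their cyanobacterial ancestor. It encodes core subunits of the photosystems, the cytochrome b6f complex, the ATP synthase and the NDH complex, the large subunit of Rubisco, ribosomal components, tRNAs and the core of a bacterial-type RNA polymerase, while the nucleus supplies the remaining subunits, a phage-type polymerase, sigma factors and many RNA-binding proteins. Plastid genes are transcribed in groups and processed, and in plastids a poly(A) tail is rare and marks RNA for decay. The labels state that mRNA was purified with a TruSeq kit before library construction, so the reads below cover the plastid RNA that passed this step, and fewer plastids or cells and less RNA in each cannot be told apart. An inverted repeat gives some plastid genes a near-identical second copy, and plastid-like DNA is also present in the nuclear genome, and how reads that match several places were counted is not given in the sources used here.

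Plastid identifiers were matched to names only through the RefSeq annotation of the TAIR10.1 assembly, which names 6 of the 87 members, in notes on nuclear genes of like sequence. They are ATCG00670, the plastid-encoded ClpP subunit of the Clp protease, ATCG00660, ATCG00750 and ATCG01310, the ribosomal proteins L20, S11 and L2, ATCG00530, a CemA-like protein of the chloroplast envelope, and ATCG00430, called photosystem II reaction center protein G. These names are those of the notes and were not checked against the plastid genes themselves, so that of ATCG00430 does not establish a photosystem II gene. The other 81 members are given by identifier. Without lengths, read counts do not rank the members by transcript level, so values of a member are compared between libraries and not with those of another member.

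Total counts per library ran from 18981328 to 21380652. The tissue label was checked against markers. The summed level of 6 leaf markers was 15010 to 19440 counts per 1000000 counts of the library (CPM) in Dox systemic leaves, against 19620 to 21870 CPM in control systemic leaves. It was 17680 to 19760 CPM in Dox local leaves, against 14440 to 15980 CPM in control local leaves. These sums rest largely on RBCS1A, which alone ran from 6829 to 12130 CPM over the 12 libraries. Another of the leaf markers, CAB2, ran from 4.27 to 494.6 CPM. The summed level of 5 root markers was at most 0.398 CPM, with RHD6 and EXPA7 at 0 in every library, and that of 3 flower markers at most 1.94 CPM. One library, control systemic library 1, stood apart from the others in its plastid reads. Ratios of the plastid share of total counts, member medians after TMM scaling and several log2 fold changes are given with and without it. Counts at an unadjusted p, counts of groups without overlap, group SDs and the spread within groups are given only with it.

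Plastid transcripts took 0.0209% to 0.0452% of the reads of a library. Their share of counts was 0.0262% (exact 95% binomial interval 0.0255% to 0.0269%), 0.0297% (0.0290% to 0.0305%) and 0.0272% (0.0265% to 0.0279%) in Dox systemic libraries 1, 2 and 3. It was 0.0452% (0.0443% to 0.0462%), 0.0268% (0.0261% to 0.0275%) and 0.0251% (0.0245% to 0.0258%) in control systemic libraries 1, 2 and 3. The first control systemic library was the highest of all 12, and its other 2 libraries lay within the range of the Dox local libraries. In Dox local libraries 1, 2 and 3 the share was 0.0346% (0.0338% to 0.0354%), 0.0249% (0.0242% to 0.0256%) and 0.0271% (0.0264% to 0.0278%). In control local libraries 1, 2 and 3 it was 0.0209% (0.0203% to 0.0215%), 0.0266% (0.0259% to 0.0274%) and 0.0294% (0.0286% to 0.0302%). These intervals cover counting error only, and every group held at least 1 pair of libraries whose intervals did not overlap.

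**Figure D1:**
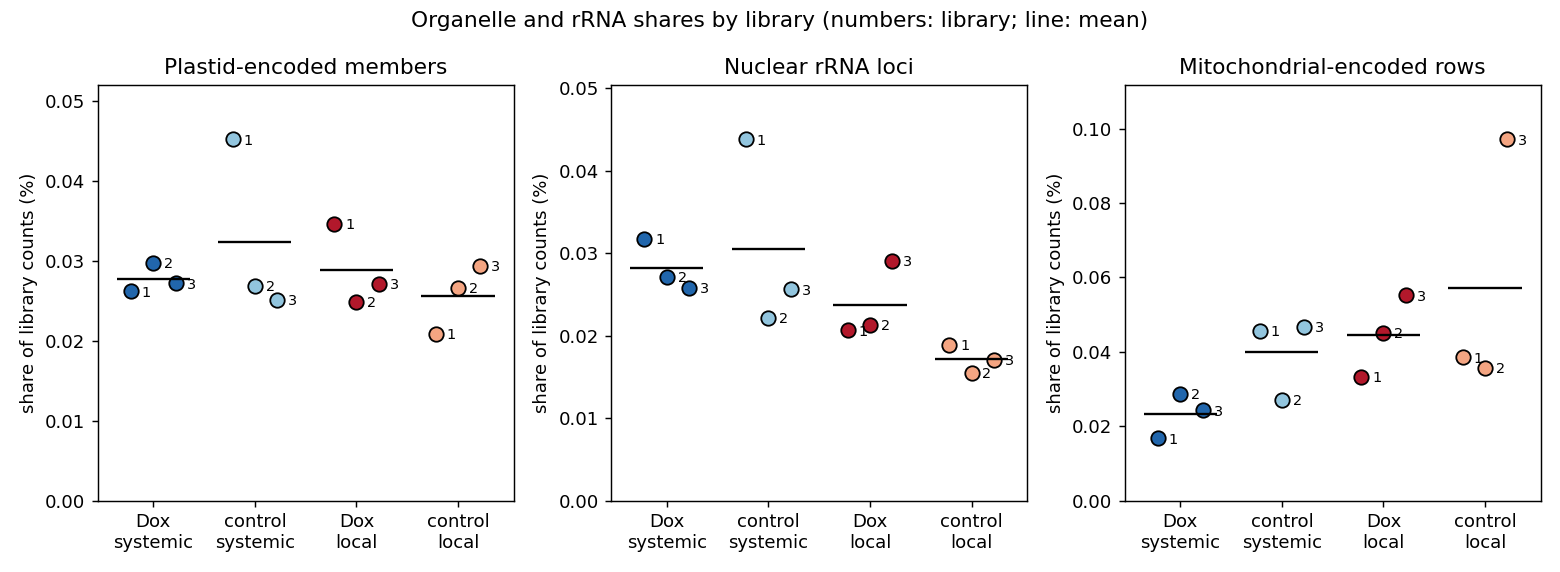
Share of library counts (%, vertical axis) held by plastid-encoded members, nuclear rRNA loci and mitochondrial-encoded rows in each of 12 libraries, by group. Numbers mark the library and lines the mean of 3. In the plastid panel control systemic library 1 lies at 0.0452% and the other 11 libraries at 0.0209% to 0.0346%.

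The plastid shares of Dox and control leaves overlapped in both leaf positions. The share averaged 0.0289% ± 0.00509 in Dox local and 0.0256% ± 0.00434 in control local leaves (SD, n = 3 each), a log2 ratio of 0.17 with overlapping libraries (two-sided exact permutation p = 0.5, the smallest possible for 3 against 3 being 0.1). It averaged 0.0277% ± 0.00183 in Dox systemic and 0.0324% ± 0.0111 in control systemic leaves (SD, n = 3 each), a log2 ratio of -0.23 (exact permutation p = 0.9). The direction rested on a single library: the log2 ratio was 0.09 without control systemic library 1.

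Systemic and local leaves overlapped as well. The control systemic over control local log2 ratio of the share was 0.34 (exact permutation p = 0.5, n = 3 each), and 0.02 without control systemic library 1. The Dox systemic over Dox local log2 ratio was -0.06 (exact permutation p = 0.9, n = 3 each), and 0.09 without Dox local library 1. The share was also taken of the library size after TMM scaling, which sets most genes level between libraries, a setting not planned beforehand. The log2 ratio was then 0.32 for Dox local over control local (exact permutation p = 0.4) and -0.34 for Dox systemic over control systemic leaves (p = 0.5). It was 0.28 for control systemic over control local (exact permutation p = 0.6) and -0.38 for Dox systemic over Dox local leaves (p = 0.3).

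The library with the highest plastid share also had the highest share of reads at 4 nuclear rRNA loci, RNA that mRNA purification is meant to remove. Nuclear rRNA took 0.0438% of counts in control systemic library 1 and 0.0155% to 0.0318% in the other 11. Its mean share was 0.0237% ± 0.00470 in Dox local and 0.0172% ± 0.00171 in control local leaves, without overlap (exact permutation p = 0.1, the smallest possible, n = 3 each). It was 0.0306% ± 0.0116 in control systemic leaves, also without overlap with control local leaves (exact permutation p = 0.1, n = 3 each). In Dox systemic leaves it was 0.0283% ± 0.00311, overlapping control systemic leaves (exact permutation p = 1, n = 3 each) and Dox local leaves (exact permutation p = 0.3, n = 3 each). Over 12 libraries, and among 3 relations computed, the plastid share and the nuclear rRNA share had a Pearson r of 0.656 (permutation p = 0.0421, Benjamini-Hochberg adjusted p = 0.124) and a Spearman rho of 0.294 (permutation p = 0.356, adjusted p = 0.534). Pearson's r was 0.000987 without control systemic library 1, so the relation rests on that library, and -0.028 without it and control local library 2, the 2 farthest from the median nuclear rRNA share. The part of mRNA purification in the plastid values was not tested. Reads of the mitochondrial genome, the other organelle genome, took 0.0168% to 0.0972% of counts and had a Pearson r of 0.099 with the plastid share (permutation p = 0.699, adjusted p = 0.699) and a rho of 0.014 (permutation p = 0.974, adjusted p = 0.974), with r at 0.072 without the 2 libraries farthest from the median.

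Plastid reads were concentrated in few members. The 12 members with most reads held 57.2% of all plastid reads. ATCG01020 with 7102 reads and ATCG00480 with 6859 reads led, and both ranked among the first 3 in every library. At the other end, 15 members had fewer than 100 reads over the 12 libraries.

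ATCG01020 stood at 29.0, 35.2 and 31.6 CPM in Dox systemic, 43.9, 27.7 and 25.1 CPM in control systemic, 39.0, 16.6 and 35.9 CPM in Dox local and 17.1, 25.0 and 26.7 CPM in control local libraries 1, 2 and 3. ATCG00480 stood at 34.9, 30.2 and 26.2 CPM in Dox systemic, 29.5, 18.6 and 23.1 CPM in control systemic, 48.2, 30.5 and 19.8 CPM in Dox local and 18.7, 30.3 and 30.9 CPM in control local libraries. In both members the groups overlapped, and the 3 Dox local libraries covered more than a 2-fold range. The third, ATCG00790, stood at 12.1, 9.95 and 12.6 CPM in Dox systemic, 21.1, 13.8 and 10.2 CPM in control systemic, 13.5, 15.5 and 12.7 CPM in Dox local and 12.7, 16.0 and 14.4 CPM in control local libraries. The 3 Dox systemic values of ATCG00790 lay below the 3 Dox local ones, by a small margin.

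**Figure D2:**
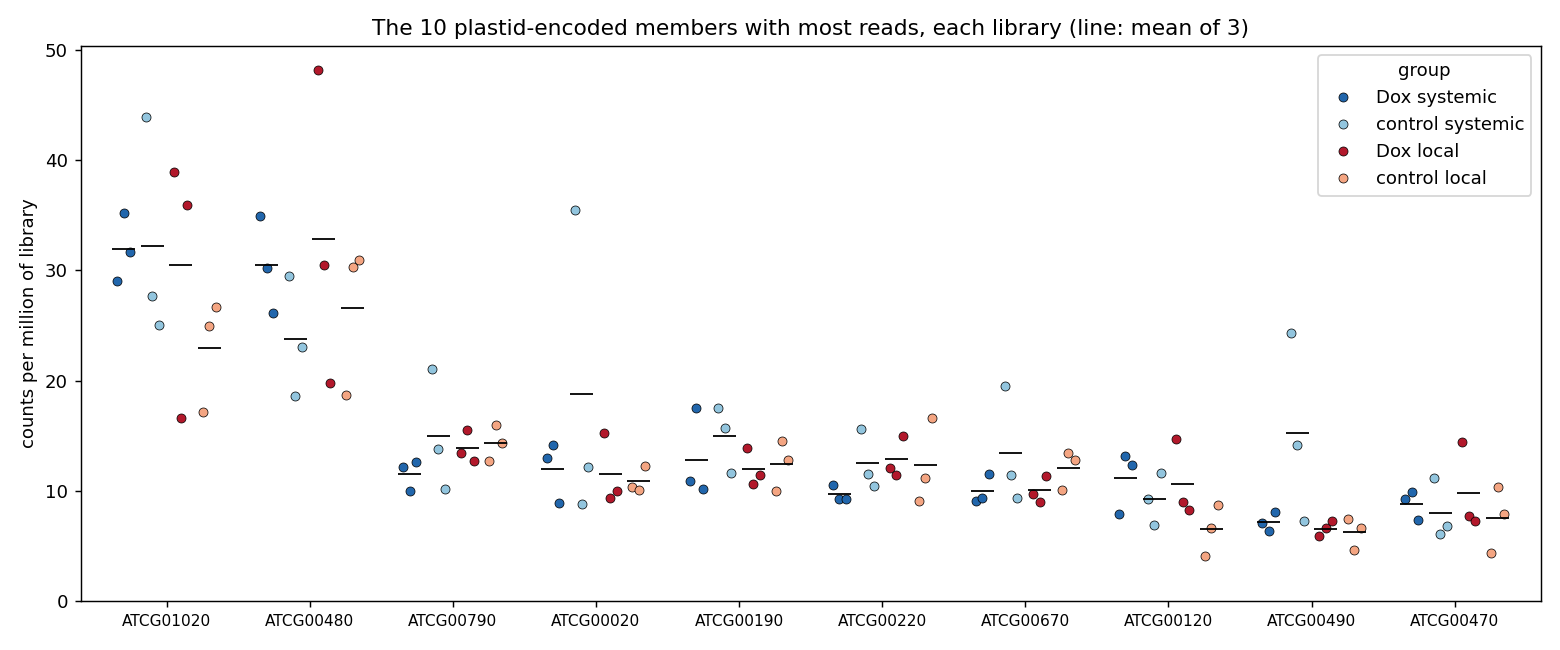
CPM by library total (vertical axis) of the 10 plastid-encoded members with most reads, each library as a point, groups side by side and lines at the mean of 3. ATCG01020 and ATCG00480 stand above the others, and control systemic library 1 is far above its group in ATCG00020, at 35.5 CPM.

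Of the members with a name, ATCG00670, whose product is the proteolytic subunit of the plastid Clp protease, stood at 9.06, 9.30 and 11.6 CPM in Dox systemic, 19.6, 11.5 and 9.35 CPM in control systemic, 9.73, 9.004 and 11.4 CPM in Dox local and 10.1, 13.4 and 12.8 CPM in control local libraries. Ribosomal protein L2 (ATCG01310) stood at 5.09, 4.08 and 3.30 CPM in Dox systemic, 4.64, 3.22 and 2.49 CPM in control systemic, 6.03, 3.65 and 3.02 CPM in Dox local and 2.09, 2.68 and 3.85 CPM in control local libraries. The groups overlapped for both. Ribosomal proteins S11 (ATCG00750) and L20 (ATCG00660), both parts of the plastid ribosome like L2, ranged over the 12 libraries from 1.32 to 3.16 CPM and from 0.669 to 1.64 CPM.

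The CemA-like protein ATCG00530 stood at 2.93, 2.99 and 2.36 CPM in Dox systemic, 9.48, 1.89 and 2.29 CPM in control systemic, 3.51, 1.49 and 2.28 CPM in Dox local and 2.18, 2.13 and 3.03 CPM in control local libraries. Its value in control systemic library 1 was far above every other library. ATCG00430 stood at 1.34, 2.04 and 0.849 CPM in Dox systemic, 2.06, 1.18 and 1.24 CPM in control systemic, 2.62, 1.65 and 1.78 CPM in Dox local and 1.99, 2.48 and 1.95 CPM in control local libraries, with overlapping Dox and control libraries in both leaf positions.

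The proportions of members within the plastid reads were more alike among 11 libraries, with control systemic library 1 apart. Over 46 members with 300 or more reads, the median Spearman correlation of a library's proportions with those of the other 11 was 0.707 for control systemic library 1 and 0.863 to 0.905 for the others. Of these members, 9 took a larger proportion of plastid reads in control systemic library 1 than in any other library and 10 a smaller one. In each of the other 11 libraries 1 to 5 members were highest and 0 to 7 lowest, with 7 lowest in Dox systemic library 2. Pairs of libraries of one group had a median rho of 0.908 and pairs from different groups 0.881, a description over members that share libraries and depth.

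A set of 4 members, picked after their counts in that library were seen, stood farthest out. Sources used here give neither product nor type for these 4 identifiers. Whether some of the 4 are copies of one gene, as in the inverted repeat, was not determined, so they may not be separate transcripts. ATCG00950 had 268 reads in control systemic library 1 and 19 to 37 in the others, and ATCG01180 had 203 against 19 to 41. ATCG00920 had 108 reads there against 7 to 33 elsewhere, and ATCG01210 had 98 against 8 to 27. Together they made 7.89% of the plastid reads of that library and 1.08% to 2.65% of those of the others. Without these 4 members the plastid share of that library was 0.0416%, against 0.0205% to 0.0341% in the others. Among members with more reads, ATCG00020 had 673 reads there and 182 to 326 elsewhere. After TMM scaling, control systemic library 1 was the highest of the 12 libraries for 26 of 74 members tested (35.1%), against 10.9% of all genes tested, and Dox local library 1 for 21 (28.4%), against 14.9% of all genes.

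**Figure D3:**
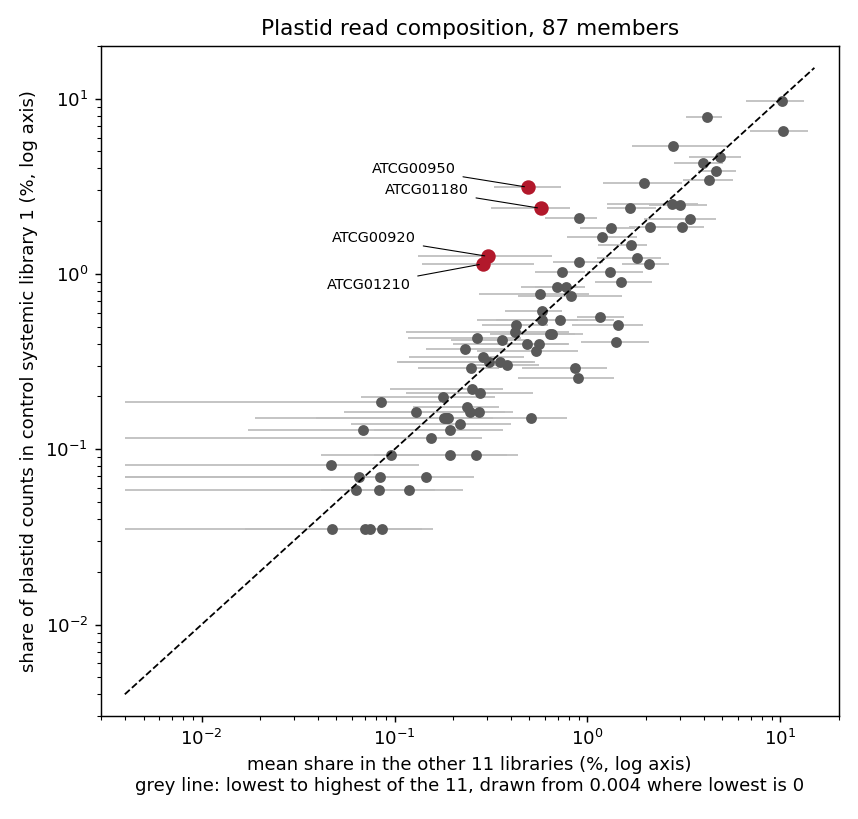
Share of each member in the plastid reads of control systemic library 1 (%, log axis) against its mean share in the other 11 libraries (%, log axis), with grey lines from the lowest to the highest of the 11 and a dashed line of equality. ATCG00950, ATCG01180, ATCG00920 and ATCG01210, in red, lie above their ranges in the other libraries.

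Libraries of one group differed beyond counting noise. The median chi-square per degree of freedom of the 46 members was 4.02 in Dox systemic leaves, 10.02 in control systemic leaves, 3.52 in Dox local leaves and 4.13 in control local leaves. Over 10345 genes in the same range of reads it was 6.20, 10.3, 12.1 and 10.1 in the same order of groups, a description without a test. With the plastid total of each library in place of the library total, the members' values were 3.62, 5.44, 2.78 and 2.37, lower in each group. The plastid total includes these members' own reads, so a lower value was partly built in.

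Whether Dox changed plastid transcripts in the leaves it was applied to was asked with edgeR's quasi-likelihood test over 19403 genes, Benjamini-Hochberg adjusted, which took in 74 of the 87 members. The other 13, with 32 to 76 reads, were too low for the filter. No member passed the test: 0 of 74 were called higher and 0 lower at an adjusted p under 0.05, where 0% of all genes were called in either direction. The lowest adjusted p of a member by edgeR was 0.902. At an unadjusted p under 0.05, 1 member was higher (2.66% of all genes) and 0 lower (2.05%), DESeq2 called 0 members (0.0413% of all genes higher, 0.0309% lower) and limma called 0 (0% in each direction). Log2 fold changes were above 0 for 55 of 74 members (52.2% of all genes) and below 0 for 19 (47.8%), with a median of 0.23, beside 0.02 over all genes, and a median standard error of 0.47 for a single member. Over all 87 members, without the filter, 64 were above 0 and the median was 0.23.

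The member with the lowest unadjusted p, ATCG00630, stood at 11.04, 4.42 and 9.15 CPM in Dox local and 2.93, 6.33 and 3.70 CPM in control local libraries. Its log2 fold change was 1.11 (SE 0.37, edgeR adjusted p = 0.902), and Dox local library 2 lay below control local library 2. ATCG00030 had the largest log2 fold change, 1.36 (SE 0.74), at 1.12, 0.617 and 0.495 CPM in Dox local and 0.447, 0.0506 and 0.462 CPM in control local libraries. These rest on 1 to 24 reads in a library, and the groups overlapped after TMM scaling. ATCG00450 at 1.00 (SE 0.54), ATCG00120 at 0.86 (SE 0.41) and ATCG01050 at 0.85 (SE 0.43) completed the 5 highest. The lowest, ATCG00730, stood at 0.608, 0.257 and 0.643 CPM in Dox local and 1.09, 1.11 and 1.08 CPM in control local libraries, without overlap and with a log2 fold change of -0.96 (SE 0.54, edgeR adjusted p = 0.902). ATCG00580 at -0.57, ATCG01060 at -0.38, ATCG01130 at -0.37 and ATCG00560 at -0.35 came next.

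After TMM scaling, the Dox local libraries did not overlap the control local ones for 4 of 74 members above them (4.14% of all genes) and 1 below (3.4% of all genes). By library total alone the counts were 4 above (2.26% of all genes) and 3 below (4.39% of all genes). The member median was 0.03 without Dox local library 1, with 43 members above 0 and 31 below, and 0.44 without control local library 3, with 66 of 75 above and 9 below. With scaling by total counts alone, 44 of 74 members were above 0, the member median was 0.09 and the median of all genes -0.12.

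In systemic leaves, whose own treatment is entered as NA, the question was whether plastid transcripts differed with treatment of the local leaves. No member passed the test by edgeR: 0 of 74 were called in either direction (0% of all genes), and the lowest adjusted p of a member was 0.471. At an unadjusted p under 0.05, 0 members were higher (3.81% of all genes) and 6 lower (4.79%), DESeq2 called 0 of 71 members with an adjusted p (0.331% of all genes higher, 0.384% lower) and limma called 0 (0% in each direction). Log2 fold changes were below 0 for 60 of 74 members (50.1% of all genes) and above 0 for 14 (49.9%), with a median of -0.34 beside 0.00 over all genes. Without control systemic library 1 the member median was -0.11, with 44 of the 75 members then tested below 0 and 31 above. Over all 87 members 69 were below 0.

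ATCG00950 and ATCG01180, named above for their reads in control systemic library 1, had the lowest log2 fold changes. ATCG00950 stood at 1.44, 1.59 and 0.896 CPM in Dox systemic and 14.1, 1.23 and 1.84 CPM in control systemic libraries, with a log2 fold change of -2.25 (SE 0.76, edgeR adjusted p = 0.496). Without control systemic library 1 it was -0.35. ATCG01180 was at -1.80 (SE 0.65), ATCG01210 at -1.59 (SE 0.68) and ATCG00920 at -1.31 (SE 0.67), and without that library they were at -0.41, -0.44 and -0.13. ATCG01100, the last of the 5 lowest, stood at 0.309, 0.796 and 0.472 CPM in Dox systemic and 1.95, 0.804 and 0.846 CPM in control systemic libraries (log2 fold change -1.28, SE 0.69). It too was highest in control systemic library 1, at a log2 ratio of 1.22 to the mean of the rest of that group. Its log2 fold change without that library is not given here.

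The lowest unadjusted p belonged to ATCG00490, singled out after its values were seen. It stood at 7.05, 6.32 and 8.11 CPM in Dox systemic, 24.3, 14.1 and 7.26 CPM in control systemic, 5.89, 6.59 and 7.22 CPM in Dox local and 7.45, 4.66 and 6.63 CPM in control local libraries. The difference therefore lay in control systemic libraries 1 and 2, which were above the other 10 libraries. Its log2 fold change in systemic leaves was -1.20 (SE 0.36, edgeR adjusted p = 0.471), and -0.65 without control systemic library 1.

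The highest member, ATCG00440, stood at 0.566, 1.19 and 0.755 CPM in Dox systemic and 0.632, 0.189 and 0.149 CPM in control systemic libraries. Its log2 fold change was 1.27 (SE 0.61, edgeR adjusted p = 0.592), on 3 to 24 reads in a library, and it was 2.19 without control systemic library 1. The next highest were ATCG00560 at 0.32, ATCG00170 at 0.30, ATCG00480 at 0.23 and ATCG01310, ribosomal protein L2, at 0.16. After TMM scaling, the Dox systemic libraries lay above the control systemic ones without overlap for 0 of 74 members (7.96% of all genes) and below them for 6 (8.41% of all genes). By library total alone the counts were 0 above (11.8% of all genes) and 4 below (5% of all genes). ATCG01100 was among these by a small margin, and its groups overlapped after TMM scaling.

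**Figure D4:**
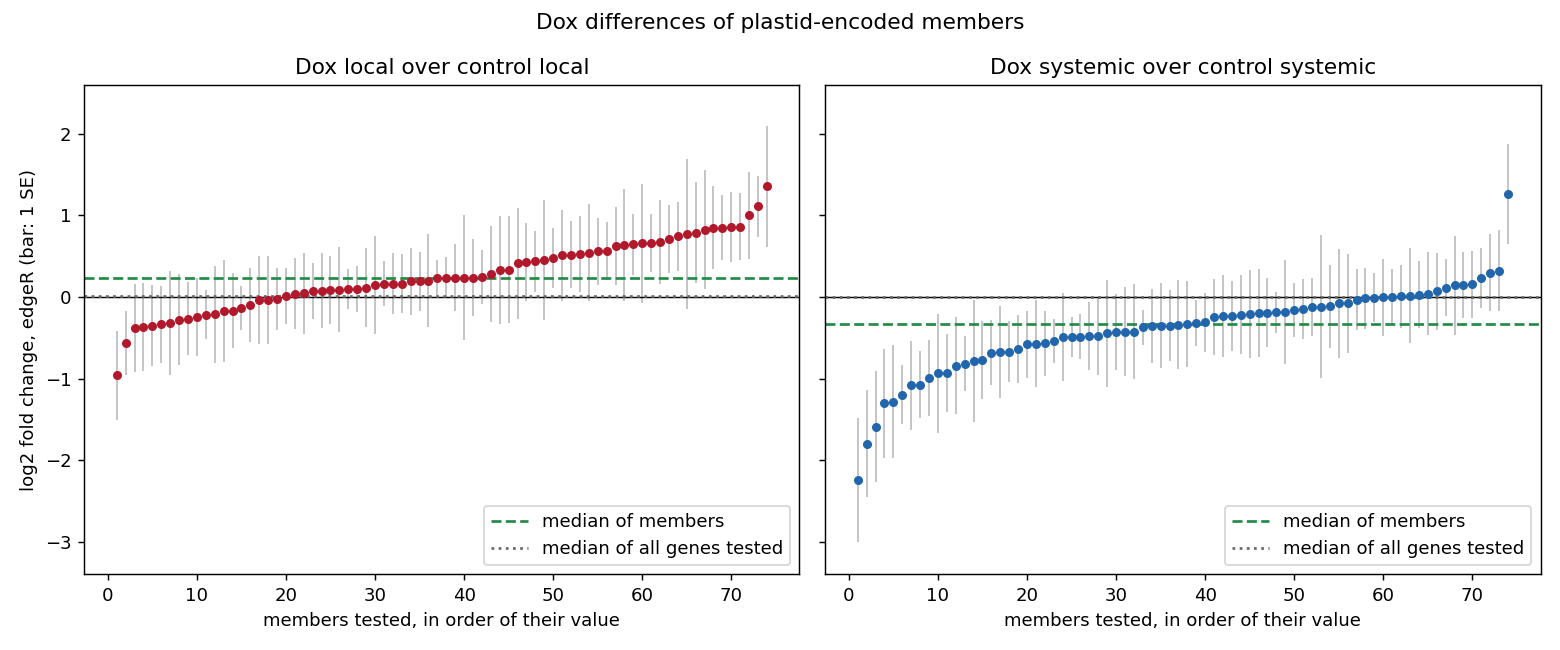
Log2 fold changes from edgeR (vertical axis, bars 1 SE) of the 74 plastid-encoded members tested, in order of their value, for Dox local over control local and Dox systemic over control systemic leaves. The dashed lines mark the member medians, 0.23 and -0.34, and the dotted lines the medians of all genes, 0.02 and 0.00.

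The difference between the Dox effects, local minus systemic, was tested as an interaction in the same model. It was called for 0 of 74 members in either direction (0% of all genes by edgeR), with a lowest adjusted p of 0.832, and at an unadjusted p under 0.05 it was higher for 7 members (3.18% of all genes) and lower for 0 (2.02%). DESeq2 called 0 members (0.00516% of all genes higher, 0% lower), and limma 0 (0% in each direction). The interaction was above 0 for 66 of 74 members (51.1% of all genes) and below 0 for 8 (48.9%), with a median of 0.63 beside 0.01 over all genes, and by total counts alone for 54 members with a median of 0.40 beside -0.24. Its median ran from 0.35 without control systemic library 1, with 56 of 75 members above 0 and 19 below, to 0.93 without control local library 3.

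Control plants gave the comparison of systemic with local leaves in the absence of Dox. The local leaves were given water and the systemic ones have NA entered, so leaf position and application cannot be told apart. The same holds in Dox-treated plants, whose local leaves were given Dox. No member passed the test by edgeR, with 0 of 74 called in either direction (0% of all genes) and a lowest adjusted p of 0.552. At an unadjusted p under 0.05, 8 members were higher (5.02% of all genes) and 2 lower (1.85%), DESeq2 called 0 members (0.268% of all genes higher, 0.0258% lower), and limma 0 (0% in each direction). The members had a median log2 fold change of 0.21, beside -0.01 over all genes, with 54 of 74 above 0 (49.3% of all genes) and 20 below (50.7%). Without control systemic library 1 the median was -0.07, with 35 of 75 members above 0 and 40 below, and without control local library 3 it was 0.46. This comparison shares its control systemic libraries with the Dox systemic one and its control local libraries with the Dox local one.

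ATCG00920 had the highest log2 fold change between control leaves, at 5.69, 0.710 and 1.64 CPM in control systemic and 0.496, 0.354 and 0.411 CPM in control local libraries. Its log2 fold change was 2.62 (SE 0.72, edgeR adjusted p = 0.552), and 1.43 without control systemic library 1. ATCG01210 was at 2.29 (SE 0.71), ATCG00950 at 2.22 (SE 0.77) and ATCG01180 at 1.77 (SE 0.66), and without that library they were at 1.11, 0.31 and 0.37. ATCG00450, the last of the 5 highest, and ATCG00630, singled out after its values were seen, follow. ATCG00450 stood at 2.48, 1.75 and 3.43 CPM in control systemic and 0.745, 1.01 and 0.976 CPM in control local libraries (log2 fold change 1.45, SE 0.53, edgeR adjusted p = 0.634). ATCG00630 stood at 11.4, 8.89 and 8.56 CPM in control systemic and 2.93, 6.33 and 3.70 CPM in control local libraries (log2 fold change 1.12, SE 0.37, edgeR adjusted p = 0.586).

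In ATCG00450 and ATCG00630, every control systemic library lay above every control local one. In Dox-treated plants the leaf positions overlapped for both. ATCG00450 stood at 1.65, 3.53 and 3.39 CPM in Dox systemic and 1.54, 0.669 and 2.82 CPM in Dox local libraries, and ATCG00630 at 8.28, 9.65 and 10.2 CPM in Dox systemic and 11.04, 4.42 and 9.15 CPM in Dox local libraries. Control local leaves had the lowest mean of the 4 groups in both members. At the other end, ATCG00370 stood at 0.421, 0.426 and 0.199 CPM in control systemic and 0.745, 0.759 and 0.873 CPM in control local libraries (log2 fold change -1.24, SE 0.50, edgeR adjusted p = 0.683). After TMM scaling, 9 of 74 members lay above without overlap (8.03% of all genes) and 2 below (4.96% of all genes), and by library total alone 10 lay above (8.68% of all genes) and 2 below (3.32% of all genes).

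In Dox-treated plants, systemic leaves were likewise compared with local ones, and no member passed the test: edgeR called 0 of 74 higher (0% of all genes) and 0 lower (0.00515% of all genes, 1 gene), with a lowest adjusted p of 0.226. At an unadjusted p under 0.05, 0 members were higher (7.68% of all genes) and 4 lower (10.3%). DESeq2 called 0 members (1.1% of all genes higher, 1.96% lower), and limma called 0 (0% higher, 0.00515% lower). Log2 fold changes were below 0 for 65 of 74 members (47.9% of all genes) and above 0 for 9 (52.1%), with a median of -0.38 beside 0.02 over all genes. With total counts alone 45 of 74 members were below 0 and the member median was -0.08, while the median of all genes was 0.31. Relative to the median of all genes, the member median was -0.41 after TMM scaling and -0.40 with total counts alone, and 9 of 74 members lay above the median of all genes under either scaling.

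ATCG00370 was again the lowest, at 0.206, 0.348 and 0.236 CPM in Dox systemic and 0.421, 0.412 and 1.04 CPM in Dox local libraries. Its log2 fold change was -1.49 (SE 0.52, edgeR adjusted p = 0.226), on 4 to 21 reads in a library. ATCG00220, with more reads, stood at 10.6, 9.25 and 9.24 CPM in Dox systemic and 12.1, 11.5 and 14.9 CPM in Dox local libraries (log2 fold change -0.71, SE 0.28, edgeR adjusted p = 0.247). In both members the Dox systemic libraries lay below the Dox local ones. After TMM scaling this held for 13 of 74 members (11.8% of all genes) and the reverse for 0 (11.9% of all genes), and by library total alone for 3 (5.31% of all genes) and 0 (29.3% of all genes). Dox local library 1, the highest of its group for plastid share, moved the member median most: it was -0.17 without that library, with 46 members below 0 and 28 above.

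**Figure D5:**
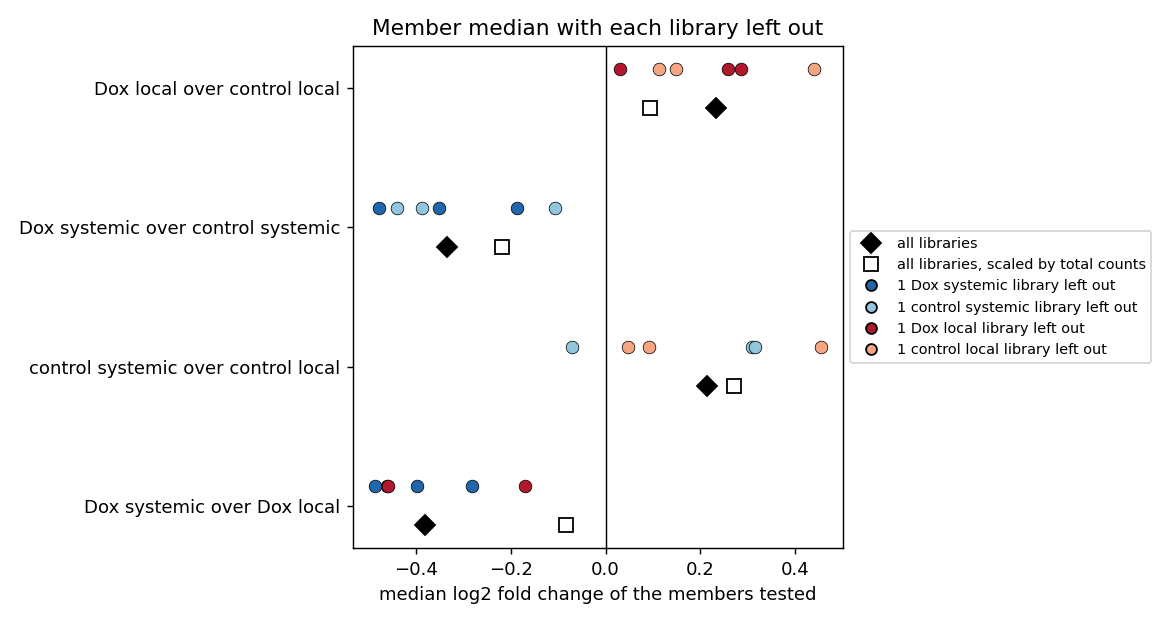
Median log2 fold change (horizontal axis) of the plastid-encoded members tested in each comparison, with all libraries (diamonds), with total-count scaling (squares) and with 1 library left out at a time (circles, coloured by its group). The control systemic over control local median is -0.07 without control systemic library 1.

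The nuclear genes that supply the other subunits of the plastid complexes and the plastid's transcription and RNA processing were read from 10 lists, and 0 genes of any list were called by edgeR in either Dox comparison (0% of all genes). Of 11 nuclear subunits of photosystem I, 10 had a log2 fold change above 0 in local leaves (median 0.09, against 0.02 over all genes) and 0 in systemic leaves (median -0.63, against 0.00). Of 9 nuclear subunits of photosystem II, 6 were above 0 in local leaves (median 0.17) and 0 in systemic leaves (median -0.53). The 4 Rubisco small subunits, partners of the plastid-encoded large subunit, were all above 0 in local leaves (median 0.64), and 1 of 4 was in systemic leaves (median -0.19), but their near-identical sequences may divide reads. Of 8 polymerase and sigma factor genes, 7 were above 0 in local and 4 in systemic leaves. Counts above 0 in local leaves were 8 of 12 for polymerase-associated proteins, 12 of 15 for RNA processing and stability, 8 of 8 for nuclear subunits of Clp protease and acetyl-CoA carboxylase, 2 of 2 for cytochrome b6f, 3 of 3 for ATP synthase and 2 of 3 for NDH. In systemic leaves they were 3, 7, 4, 0, 0 and 0 in the same order. All these list values are after TMM scaling and were not computed by total counts alone. By total counts alone the median of all genes was -0.12 in local and 0.11 in systemic leaves, so counts above 0 depend on the scaling. With 1 library left out at a time, genes of several lists changed sign in local leaves, the photosystem I subunits PSAO and PSAD2 among them. PSAO ran from -0.10 to 0.45 and PSAD2 from -0.455 to 0.19. The photosystem II subunit PSBP1 ran from -0.20 to 0.14 and the sigma factor SIG5 from -0.30 to 0.91.

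SIG5, a stress- and light-responsive sigma factor that directs the plastid polymerase, stood at 1.08, 1.24 and 0.990 CPM in Dox systemic and 1.48, 2.27 and 2.64 CPM in control systemic libraries (log2 fold change -1.06, SE 0.57, edgeR adjusted p = 0.631). PSAD2, a stromal photosystem I subunit, stood at 118, 163 and 91.8 CPM in Dox systemic and 343, 241 and 213 CPM in control systemic libraries (log2 fold change -1.21, SE 0.40, edgeR adjusted p = 0.487). Neither passed the test, though in both the Dox systemic libraries lay below all control systemic ones. Together, 33 nuclear photosynthetic partner genes took 4.83% ± 0.439 of counts in Dox systemic leaves, against 5.79% ± 0.447 in control systemic leaves, and 4.91% ± 0.111 in Dox local leaves, against 4.25% ± 0.182 in control local leaves (SD, n = 3 each). The Dox local libraries lay above the control local ones without overlap (exact permutation p = 0.1, the smallest possible), and the systemic groups overlapped (exact permutation p = 0.2). The 33 genes include the 4 Rubisco small subunits, which hold a large part of these counts. RBCS1A alone stood at 9682, 10080 and 10870 CPM in Dox local and 6829, 7948 and 8485 CPM in control local libraries. The share without the Rubisco genes was not tested, so the sum does not show that the other partners were higher. Over 12 libraries the share of the 33 genes and the plastid share had a Pearson r of 0.518 (permutation p = 0.0829, adjusted p = 0.124) and a rho of 0.301 (permutation p = 0.342, adjusted p = 0.534). This r was 0.159 without control systemic library 1 and 0.258 without control systemic libraries 1 and 2, the farthest from the median.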

How the data were processed

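RNA sequencing counts of Arabidopsis leaves were analysed in 4 groups of 3 columns each. The deposited values are whole-number counts of reads in each gene and were not normalized. The submitters' processing notes name featureCounts 1.6.3, HISAT2, DESeq2, FastQC 0.11.9 and Trimmomatic 0.39. Sources used here name no genome build, annotation, strand setting or treatment of multiply mapped reads. Total counts per library ran from 18981328 to 21380652, and exact binomial intervals on shares cover counting error only. The members and gene lists were chosen with earlier results of these data known.

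Tests used edgeR 4.0.16 in R 4.3.3, with a quasi-likelihood fit of 4 group means over 12 libraries, TMM scaling, filterByExpr at a minimum count of 10 and Benjamini-Hochberg adjustment over all genes tested, with calls at an adjusted p under 0.05. DESeq2 1.42.0 and limma 3.58.1 were alternatives, as were other scalings, no filter, a replicate block and leaving out each library. The pipeline was tested on simulated data with a dispersion of 0.05 for all genes, in Dox local over control local leaves. It called 58% of genes changed 2-fold and 100% of those changed 4-fold. The setting was not matched to the members tested, whose median log2 CPM was 0.95, against 4.15 for all genes. The median square root of edgeR's dispersion estimate was 0.368 for them, against 0.253 for all genes, so recovery among members was not tested. CPM are counts per 1000000 counts of the library, and shares were compared with exact two-sided permutation tests. Overlap of groups was judged on TMM-scaled CPM unless stated, which can differ from the unscaled values printed. Correlations over libraries used 100000 permutations.

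Named members are the 5 highest and 5 lowest in each Dox comparison, those called, and the rows at the threshold. Naming by functional class or by gene name could not be applied, because the identifiers carry no annotation, except for clpP (ATCG00670). All other members named, such as ATCG00490 and those with most reads, and SIG5 and PSAD2 of the nuclear lists, were chosen after their values were seen, and the other nuclear genes that the rule would name are given as counts. Columns of control systemic and control local leaves with the same number deviated together (r = 0.29, 0.40 and 0.70 for numbers 1, 2 and 3), which meets the rule used for pairing. In the other comparisons at least 1 number did not.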

Additional observations from a re-analysis of the deposited data

How the results depend on the processing

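No member was called under any of the settings run, with edgeR, DESeq2 or limma. With 1 library left out at a time, the log2 ratio of the plastid share ran from 0.02 to 0.28 for Dox local over control local, from -0.38 to 0.09 for Dox systemic over control systemic, from 0.02 to 0.49 for control systemic over control local and from -0.16 to 0.09 for Dox systemic over Dox local. It reversed without control systemic library 1 (0.0925) and without Dox local library 1 (0.0919), and the cause was not tested. Member medians ran from 0.03 to 0.44, from -0.48 to -0.11, from -0.07 to 0.46 and from -0.49 to -0.17 in these comparisons. With the column number as a replicate block the medians were 0.22, -0.31, 0.18 and -0.38, and 0.60 for the interaction, with 0 members called, so the block changed no call in the pair of control groups that met the pairing rule. Restricting the members to protein-coding rows was not run, since the identifiers are not annotated by type. Of all genes, DESeq2 called 214 higher and 380 lower in Dox systemic over Dox local leaves, where edgeR called 0 and 1. Depth limits the low members: 13 of 87 had too few reads to test, and the median standard error of a member tested was 0.47 on the log2 scale in Dox local over control local leaves.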

Other observations

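Members whose identifiers differ by 10, the usual step between neighbouring locus numbers, tended to vary together across libraries. Over the 46 members with 300 or more reads, the log2 share of plastid reads had a median Pearson r of 0.42 between members of the 23 such pairs and of -0.03 between members of the other 1012 pairs. The value for the 23 pairs was 0.42 without control systemic library 1 too. Of the 23 pairs, 11 had an r over 0.5 (47.8%), against 92 of the other 1012 (9.09%). The pairs share libraries, depth and plastid totals, so this is a description with no test, and the sources used here do not tie identifier order to genome position.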
